A study of Mus musculus with 4 samples.

Results

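Skeletal muscle loses protein mainly through the ubiquitin-proteasome system. A ubiquitin ligase picks the protein to be destroyed, and the muscle ligases atrogin-1 and MuRF1 are the textbook markers of wasting after fasting, denervation or glucocorticoids. FoxO transcription factors switch these ligases on. Insulin and IGF-1 act through Akt, which phosphorylates FoxO proteins and keeps them out of the nucleus, a step that mRNA levels do not show. In dystrophic muscle, wasting runs alongside repeated fibre damage and regeneration.

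The 10 genes described here are 4 F-box proteins, which bind the substrate in an SCF ligase (Fbxo32, Fbxo30, Fbxo21 and Fbxo31), the 3 muscle-specific RING ligases (Trim63, Trim55 and Trim54) and 3 FoxO factors (Foxo1, Foxo3 and Foxo4). They were taken by symbol from the 24054 gene symbols of the table. The rule uses no measured value, although the list was drawn up with earlier results of these data known. All 10 were listed and all 10 passed the filter on low counts.

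The muscles came from female *mdx* mice of the C57BL/10ScSn-Dmd mdx/J strain, whose dystrophin gene is mutated in every tissue, in both groups alike. Monthly femoral-vein infusions began at 8 weeks of age and ran to the 12-month endpoint. The mCDC group received mouse cardiosphere-derived cells of passage 5, which are stromal cells grown from heart tissue, and the vehicle group received medium without cells. The soleus, a slow hindlimb muscle, was sequenced in bulk from 2 mCDC and 2 vehicle samples. There was no healthy muscle among the libraries, so whether a level was raised by the dystrophy cannot be read from them.

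Expected counts, the reads RSEM assigned to each gene, summed to between 22481391 and 27187425 per library. Values are given as CPM, counts relative to a library size corrected by the trimmed mean of M-values. A gene was called when its fold change exceeded 1.5 with an unadjusted p under 0.05 in edgeR's quasi-likelihood test, the thresholds of the study's methods. Of the 13652 genes tested, 172 (1.26%) were called higher and 374 (2.74%) lower with mCDCs. None had an adjusted p under 0.05 in that test, although 91 genes had without mCDC replicate 1, 17 without mCDC replicate 2 and 1 without vehicle replicate 2. At an unadjusted p under 0.05 there were 947 genes, and 66 genes had an adjusted p under 0.05 by edgeR's likelihood ratio test and 51 by DESeq2. The labels do not name the mouse of each library, so p-values measure only the spread between these samples, and no exact permutation test of 2 against 2 libraries can give a p below 0.333. Summed slow-fibre markers stood at 65834 to 80429 CPM and summed fast-fibre markers at 8853 to 15970 CPM. The fast sum leaves out Myh2, the fast IIa myosin, which was counted among the general fibre markers. Myh2 alone had 6749 to 10859 CPM, so the gap between the sums depends on the lists. No fibre marker was called or had an unadjusted p under 0.05 in edgeR's quasi-likelihood test, nor was any called by DESeq2. Single fast-fibre genes still differed widely between libraries of 1 group: Myh4, a fast myosin heavy chain, had 2096 and 47.5 CPM in mCDC and 163 and 411 CPM in vehicle muscles, and Pvalb, the calcium buffer parvalbumin, had 648 and 16.8 CPM in mCDC and 161 and 109 CPM in vehicle muscles. Both were lowest in mCDC replicate 2.

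2 promoters show what the genome places next to these genes. Trim63 is a known direct target of FoxO factors and of the glucocorticoid receptor, and its window is shown because it was the only one of the 7 found in RefSeq's promoter table to hold a forkhead motif. Foxo3 is shown as the called gene with an entry. Each line runs 5′ to 3′ over the 250 bases before the gene's start in GRCm38.p6, at chr4:134314870-134315119 on the plus strand for Trim63 and chr10:42276696-42276945 on the minus strand for Foxo3. Capitals mark the glucocorticoid half-site pair and then the forkhead motif.
Trim63: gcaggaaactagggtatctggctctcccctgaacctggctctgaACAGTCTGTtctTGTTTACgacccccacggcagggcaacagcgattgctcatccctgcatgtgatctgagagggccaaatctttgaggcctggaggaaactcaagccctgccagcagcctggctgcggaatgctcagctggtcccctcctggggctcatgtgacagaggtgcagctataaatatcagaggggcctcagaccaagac
Foxo3: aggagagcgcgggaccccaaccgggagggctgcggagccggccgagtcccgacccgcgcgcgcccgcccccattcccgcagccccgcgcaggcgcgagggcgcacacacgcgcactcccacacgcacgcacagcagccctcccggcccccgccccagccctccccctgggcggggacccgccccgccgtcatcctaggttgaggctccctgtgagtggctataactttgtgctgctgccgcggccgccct

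The motifs searched on both strands were GTAAACA and CAAAACA for forkhead factors, ACANNNTGT for paired glucocorticoid half-sites and CANNTG for the E-box, to which MyoD-type factors bind. Trim63 held GTAAACA, read here on the opposite strand, 194 bases before the start, ACANNNTGT at 206 bases, and 3 E-boxes, none overlapping another. The Foxo3 window held none of the 4 motifs. Among 32851 promoter windows of the same length, 3.2% held GTAAACA, 5.6% CAAAACA, 5.8% ACANNNTGT and 66.2% CANNTG. E-boxes were present in 3 of the 7 windows, those of Trim63, Trim54 and Foxo1. A match is a run of letters, not a measured binding site.

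Fbxo32, which encodes atrogin-1, was lower in mCDC muscles, while none of the RING ligases, Trim63 among them, was called. Of the 10 genes, Fbxo32 and Foxo3 were called lower, none was called higher and 8 were not called. Among all genes tested, 2.74% were called lower. An unadjusted p under 0.05 was reached by 3 of the 10 genes against 6.94% of all genes. The 4 libraries separated by group for 5 of the 10 genes, against 38.7% of all genes. In 4 of these, both mCDC libraries were below both vehicle libraries, as in 19.5% of all genes. The median log2 fold change of the 10 genes was -0.04, beside -0.0094 over all genes, with 4 fitted values above 0 and 6 below.

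**Figure D1:**
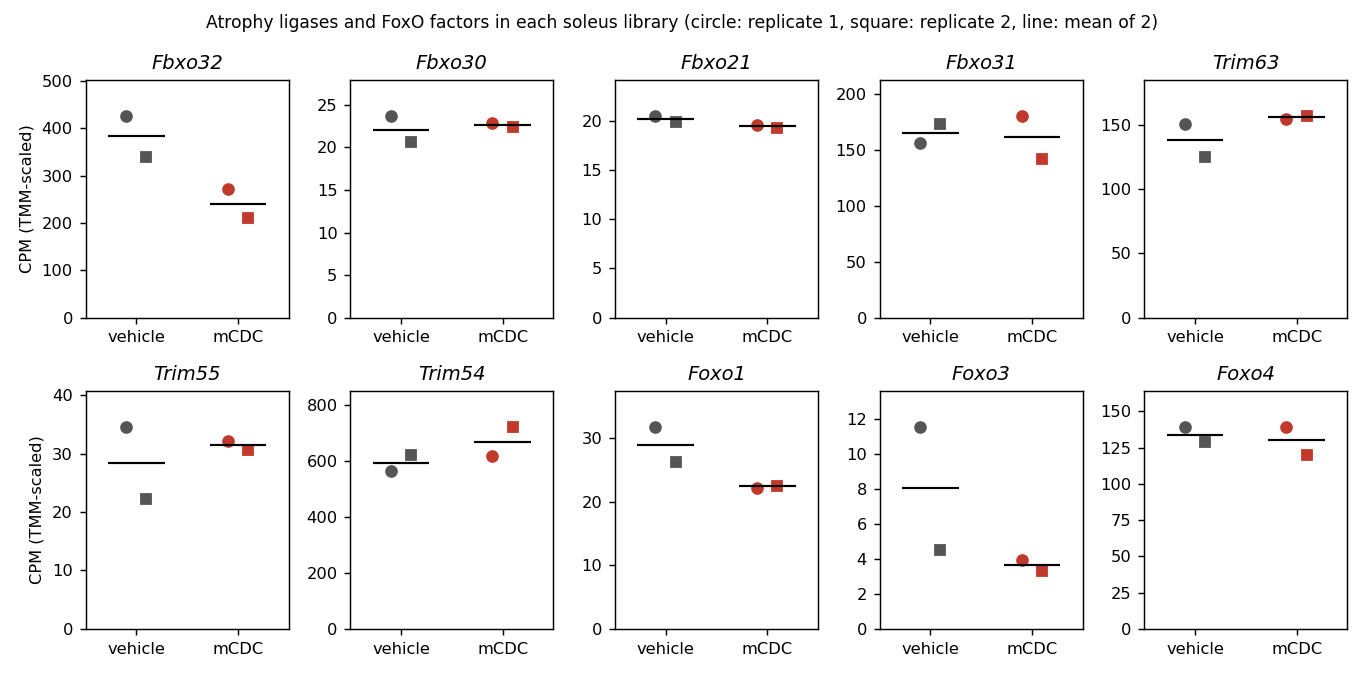
CPM of each of the 10 genes in each library, with mCDC and vehicle libraries as points and group means as horizontal lines. Fbxo32 lay between 211 and 271 CPM in mCDC muscles and between 340 and 426 CPM in vehicle muscles, while for Foxo3 1 vehicle library, at 11.5 CPM, stood above the other 3.

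Fbxo32 (chr15:58175879-58214892 in GRCm38.p6) had 271 and 211 CPM in mCDC replicates 1 and 2 and 426 and 340 CPM in vehicle replicates 1 and 2. Both mCDC muscles were below both vehicle muscles. The means were 241 ± 42.3 and 383 ± 60.9 CPM (SD, n = 2), and the difference, mCDC minus vehicle, of -142 CPM was larger than either SD. The log2 fold change was -0.67 (SE 0.18, 95% interval -1.07 to -0.26), or 0.63 of the vehicle level, with an adjusted p = 0.612 in edgeR's quasi-likelihood test. DESeq2 gave -0.66 with an adjusted p = 0.150 and edgeR's likelihood ratio test an adjusted p = 0.175. The call rested on the fold threshold: the log2 fold change was -0.50 without mCDC replicate 2, -0.49 without vehicle replicate 1 and -0.46 with a trend on transcript length and GC content removed, all short of 1.5-fold. Fbxo32 was below vehicle in all 13 alternatives run. In 4 of these a library is left out, so that 1 group holds a lone library. That library is assumed to vary as the other group does. Because the groups did not overlap, leaving out a library could hardly turn the direction.

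The other F-box proteins gave no such difference. Fbxo30, or MUSA1, a ligase restrained by BMP signalling, had 22.9 and 22.4 CPM in mCDC and 23.7 and 20.6 CPM in vehicle muscles. Its groups overlapped, with a log2 fold change of 0.03 (SE 0.16, edgeR adjusted p = 0.971). Fbxo21, or SMART, a FoxO-dependent ligase of denervated muscle, had 19.6 and 19.3 CPM in mCDC and 20.5 and 19.9 CPM in vehicle muscles. Its libraries separated by group but by very little, and the log2 fold change was -0.05 (SE 0.15, edgeR adjusted p = 0.954). Fbxo31, another FoxO-dependent F-box protein, had 180 and 142 CPM in mCDC and 156 and 173 CPM in vehicle muscles, with the vehicle values inside the mCDC range. Its log2 fold change was -0.03 (SE 0.16, edgeR adjusted p = 0.972). The 95% intervals of these 3 genes, on the log2 scale, ran from -0.40 at the lowest to 0.39 at the highest, so changes of 1.5-fold lay outside all of them.

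Trim63, which encodes MuRF1 and with Fbxo32 makes up the usual atrophy readout, had 155 and 157 CPM in mCDC and 151 and 125 CPM in vehicle muscles. Both mCDC muscles were above both vehicle muscles, though close to vehicle replicate 1. The means were 156 ± 1.46 and 138 ± 18.7 CPM (SD, n = 2), a difference within the vehicle SD. The log2 fold change was 0.17 (SE 0.14, 95% interval -0.15 to 0.50, edgeR adjusted p = 0.793). Trim55, or MuRF2, which binds titin at the sarcomere, had 32.2 and 30.7 CPM in mCDC and 34.5 and 22.2 CPM in vehicle muscles. The 2 vehicle libraries lay on either side of the mCDC pair, and the log2 fold change was 0.15 (SE 0.21, edgeR adjusted p = 0.878). Trim54, or MuRF3, which stabilises microtubules, had 618 and 720 CPM in mCDC and 564 and 623 CPM in vehicle muscles. The groups overlapped, at a log2 fold change of 0.17 (SE 0.15, edgeR adjusted p = 0.807). The interval of Trim55 reached 0.64 on the log2 scale, past the 1.5-fold line, whereas those of Trim63 and Trim54 did not.

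The 2 best-known atrophy ligases can be set against each other within a library. Per kilobase of transcript, Fbxo32 stood at 0.473 and 0.364 of the Trim63 level in the 2 mCDC muscles and at 0.761 and 0.735 in the 2 vehicle muscles. The ratios did not overlap. Their mean log2 difference was -0.85, with an exact permutation p of 0.333, two-sided and the smallest that 2 against 2 libraries can give, so a difference is not shown by this test. Without vehicle replicate 2, the log2 fold change of Trim63 was 0.041.

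**Figure D2:**
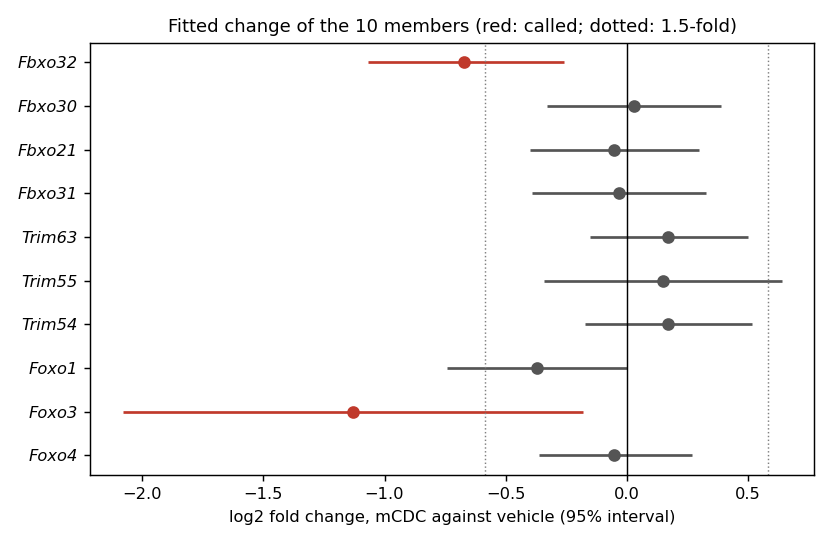
Fitted log2 fold change of each of the 10 genes, mCDC against vehicle, with 95% intervals as bars and dotted lines at 1.5-fold. The intervals of Fbxo32, from -1.07 to -0.26, and of Foxo3, from -2.08 to -0.18, lie below 0, that of Foxo1 ends at -0.00, and the other 7 span 0.

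The FoxO factors differed in level and in spread. Foxo4 was the most abundant, at a mean of 41.7 CPM per kilobase over the 4 libraries, followed by Foxo1 at 2.96 and Foxo3 at 2.02 CPM per kilobase. In vehicle replicate 1 Foxo3 was above Foxo1, at 3.99 against 3.66 CPM per kilobase. With the transcripts used, the order of Foxo1 and Foxo3 is therefore within their spread, while Foxo4 was above both in every library. The Foxo3 level used a transcript of 2889 bases. With the longer annotated form of 6848 bases Foxo3 would be below Foxo1 in every library. Foxo3, the factor best known for driving Fbxo32 and autophagy genes, had 3.94 and 3.33 CPM in mCDC and 11.5 and 4.51 CPM in vehicle muscles. Both mCDC muscles were below both vehicle muscles, but vehicle replicate 1 was far above the other 3. These values rested on 104 and 73 counts in mCDC and 302 and 124 counts in vehicle libraries. The means were 3.64 ± 0.427 and 8.02 ± 4.96 CPM (SD, n = 2), and the difference of -4.38 CPM was smaller in size than the vehicle SD. The log2 fold change was -1.13 (SE 0.41, 95% interval -2.08 to -0.18), with an adjusted p = 0.695 in edgeR's quasi-likelihood test. Without vehicle replicate 1 it was -0.30 and no longer called.

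Foxo1, which drives Pdk4 and the atrophy ligases, had 22.2 and 22.5 CPM in mCDC and 31.7 and 26.2 CPM in vehicle muscles. Both mCDC muscles were below both vehicle muscles. The log2 fold change was -0.37 (SE 0.16, 95% interval -0.74 to -0.00), short of 1.5-fold, with an adjusted p = 0.714 in edgeR's quasi-likelihood test. Its unadjusted p was under 0.05 in that test and in 4 of the 13 alternatives, DESeq2 not among them. It was -0.22 without vehicle replicate 1 and -0.16 with the length and GC trend removed. Foxo4, which shares the forkhead domain and is also an Akt substrate, had 139 and 120 CPM in mCDC and 139 and 129 CPM in vehicle muscles. These overlapped, with a log2 fold change of -0.05 (SE 0.14, edgeR adjusted p = 0.951). Set against Foxo4 per kilobase, Foxo1 stood at 0.0582 and 0.0683 in mCDC and at 0.0830 and 0.0741 in vehicle muscles, and Foxo3 at 0.0309 and 0.0303 in mCDC and at 0.0905 and 0.0383 in vehicle muscles. Neither ratio overlapped between groups, and each gave the smallest exact permutation p, 0.333. Foxo6, a further FoxO gene chosen after its values were seen, had 16.6 and 13.6 CPM in mCDC and 13.1 and 17.0 CPM in vehicle muscles.

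Across all 10 genes, the levels per kilobase of Trim54 and Trim63 were the highest and those of Foxo1 and Foxo3 the lowest. Trim54 had a mean of 440 CPM per kilobase over the 4 libraries, followed by Trim63 at 78.0, Fbxo32 at 44.7, Foxo4 at 41.7 and Fbxo31 at 37.3. Trim55 followed at 11.5, Fbxo30 at 5.93 and Fbxo21 at 5.05, ahead of Foxo1 and Foxo3. The Fbxo30 level used a transcript of 3776 bases, and with the longer annotated form of 5060 bases it would come below Fbxo21, so these 2 are not ordered. Fbxo32 ranged from 30.3 to 61.1 CPM per kilobase across libraries, which takes in the means of Foxo4 and Fbxo31, so those 3 are not ordered beyond their spread. Genes on the opposite strand overlap Fbxo32, Trim54, Fbxo31 and Foxo1 in the annotation, and none of these partners is in the count table. Whether the counting used strand is not given in the sources used here, so reads from such partners cannot be told apart from the genes' own. Of the 31-base words of its transcripts, sought on either strand, Trim54 shared 21.1% with another gene. That gene was Gm15469, its partner on the opposite strand, and no other. Foxo1 shared 8.00% with other genes, Fbxo21 4.58%, Fbxo32 4.16% and each of the others under 1%.

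**Figure D3:**
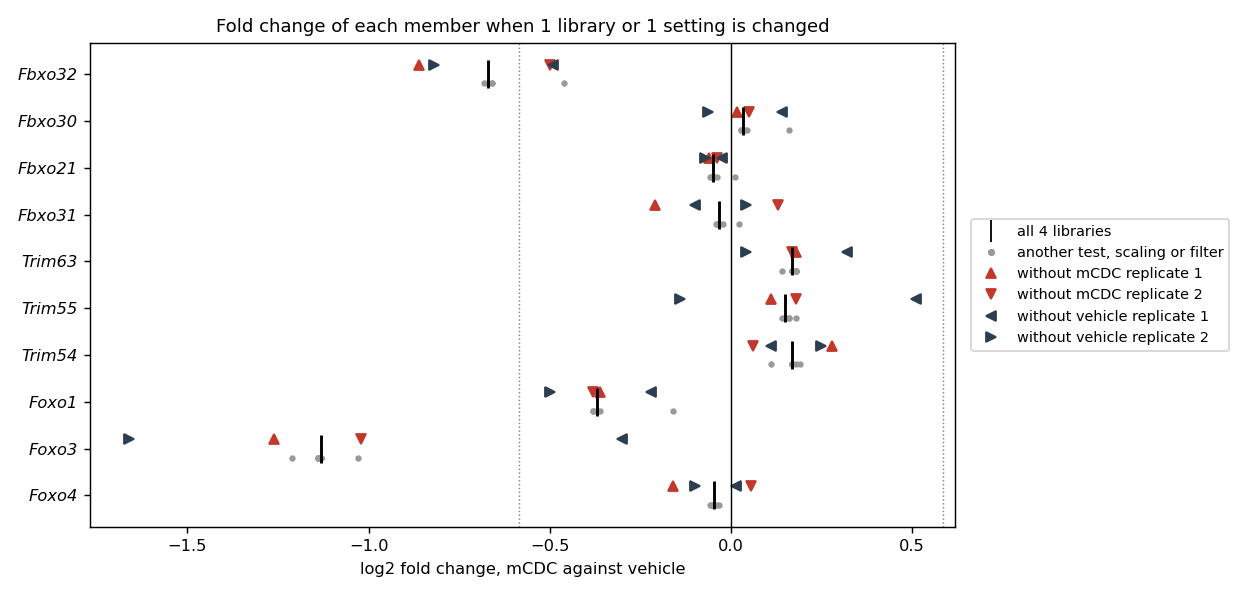
Log2 fold change of each of the 10 genes with all 4 libraries (black bars), with 1 library left out (triangles) and with another test, scaling or filter (grey points). Foxo3 moves from -1.66 without vehicle replicate 2 to -0.30 without vehicle replicate 1, while Fbxo32 stays between -0.86 and -0.46.

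The other F-box and tripartite-motif genes are read against the whole table, in which 1.26% of genes were called higher, 2.74% lower and 6.94% had an unadjusted p under 0.05. Of 53 other F-box genes tested, none was called in edgeR's quasi-likelihood test or by DESeq2, 1 had an unadjusted p under 0.05, and the median log2 fold change was 0.00 (range -0.63 to 0.54). Of 41 other tripartite-motif genes, Trim30d alone was called by edgeR's quasi-likelihood test and none by DESeq2. Trim30d had 0.454 and 0.502 CPM in mCDC and 0.839 and 1.49 CPM in vehicle muscles (edgeR adjusted p = 0.705), and the median log2 fold change of the 41 was -0.09.

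A list of 25 other muscle ubiquitin ligases and their adaptors had 1 gene called higher and 1 lower, beside 1.26% and 2.74% of all genes, and 5 with an unadjusted p under 0.05, beside 6.94%. The median log2 fold change of the list was -0.01. Klhl40, a Kelch protein that stabilises thin-filament proteins, had 383 and 703 CPM in mCDC and 287 and 282 CPM in vehicle muscles. Its log2 fold change was 0.93 (SE 0.26, edgeR adjusted p = 0.619), and it was not called without mCDC replicate 2, at 0.43. Asb15, a SOCS-box adaptor, had 43.7 and 27.2 CPM in mCDC and 83.7 and 42.3 CPM in vehicle muscles, so its groups overlapped although it was called lower at -0.83 (SE 0.33, edgeR adjusted p = 0.714). It was -0.25 without vehicle replicate 1 and -0.53 without mCDC replicate 2, not called in either. Trim72, or MG53, which patches membrane tears, had 0.38 (SE 0.15, edgeR adjusted p = 0.714) and the HECT ligase Wwp1 -0.40 (SE 0.14, edgeR adjusted p = 0.683), both short of 1.5-fold. Klhl38, a further Kelch gene on none of the lists, was picked out with its values known. It had 31.8 and 26.9 CPM in mCDC and 54.5 and 39.0 CPM in vehicle muscles. Klhl38 was called lower at -0.67 (SE 0.19, edgeR adjusted p = 0.619), with groups that did not overlap.

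The machinery that the ligases share is read against 1.26% of all genes called higher and 2.74% lower, so lists this short would hold few calls or none. None of 10 genes of the SCF core and its activators passed the thresholds in edgeR's quasi-likelihood test or by DESeq2, none had an unadjusted p under 0.05, and the median log2 fold change was 0.08. The genes with the smallest p had 0.23 for Uba3 (edgeR adjusted p = 0.775) and 0.17 for Ube2m (edgeR adjusted p = 0.776), both of the neddylation pathway that activates cullins, while Cul1, the SCF scaffold, had -0.03. Dcun1d1, a neddylation co-factor, had -0.02. None of 18 ubiquitin, activating and conjugating enzyme genes was called in either test or had an unadjusted p under 0.05, although 15 had a fitted value above 0, at a median of 0.10. Their extremes by p were Rps27a and Ube2n above 0, at 0.21 and 0.20, and Ube2g1 and Uba6 below 0, at -0.08 and -0.11.

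Upstream of FoxO, 1 of 19 genes of the insulin and IGF-1 to Akt arm was called, lower, beside 2.74% of all genes, and 3 had an unadjusted p under 0.05, beside 6.94%. Of the 19, 6 had a fitted value above 0, and the median log2 fold change was -0.14. Sgk1, a kinase induced by glucocorticoids that phosphorylates FoxO proteins, had 31.5 and 29.3 CPM in mCDC and 62.3 and 34.1 CPM in vehicle muscles. It was called lower at -0.66 (SE 0.26, edgeR adjusted p = 0.713), and stood at -0.16, not called, without vehicle replicate 1. Pik3r1, the regulatory subunit of PI3-kinase, was below 1.5-fold at -0.46 (SE 0.15, edgeR adjusted p = 0.642), with 32.0 and 29.1 CPM in mCDC and 44.6 and 39.5 CPM in vehicle muscles. Akt1 had a log2 fold change of 0.19 and Ywhaz, a 14-3-3 protein that holds phosphorylated FoxO in the cytoplasm, 0.26.

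Of 23 FoxO targets outside the ligases, 1 was called higher and 1 lower, beside 1.26% and 2.74% of all genes, and 4 had an unadjusted p under 0.05, beside 6.94%. A fitted value above 0 was found for 17 of them, and the median log2 fold change was 0.15. Pdk4, which blocks glucose oxidation, had 1583 and 1057 CPM in mCDC and 769 and 894 CPM in vehicle muscles. It was called higher at 0.67 (SE 0.21, edgeR adjusted p = 0.642), opposite in direction to Fbxo32, but not without mCDC replicate 1 (0.35) or without vehicle replicate 1 (0.57). Ddit4, or REDD1, an inhibitor of mTORC1 induced by glucocorticoids and stress, had 6.32 and 6.08 CPM in mCDC and 27.8 and 12.8 CPM in vehicle muscles. It was called lower at -1.71 (SE 0.34, edgeR adjusted p = 0.462), and leaving out single libraries, with the same assumption about the lone library, gave -2.16 to -1.04. Cited2, a transcriptional co-regulator, had 0.37 (SE 0.13, edgeR adjusted p = 0.683), and Klf15, a glucocorticoid-induced factor of muscle amino acid metabolism, had -0.49 (SE 0.28, edgeR adjusted p = 0.747), neither called.

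Among 20 other regulators of the atrophy ligases, 2 were called higher and 2 lower by edgeR's quasi-likelihood test, beside 1.26% and 2.74% of all genes, at a median log2 fold change of 0.09. An unadjusted p under 0.05 in edgeR's quasi-likelihood test was reached by 5 of the 20, beside 6.94% of all genes. DESeq2 called 6 of the 20, beside 427 of 18132 genes. The likelihood ratio test of edgeR called 5, beside 629 of 13652 genes. Tnfrsf12a, the TWEAK receptor Fn14, which is induced in injured and denervated muscle, had 201 and 414 CPM in mCDC and 94.9 and 88.6 CPM in vehicle muscles. Its log2 fold change was 1.74 (SE 0.30, edgeR adjusted p = 0.340). Myog, the differentiation factor myogenin, which also drives Fbxo32 and Trim63 after denervation, had 32.6 and 63.3 CPM in mCDC and 21.3 and 24.4 CPM in vehicle muscles, at 1.07 (SE 0.28, edgeR adjusted p = 0.612). In both genes mCDC replicate 2 was the highest library, as it was for Klhl40, and this library had the least Fbxo32, Myh4 and Pvalb. The part of its fibre makeup in these values was not tested. Without it Tnfrsf12a was 1.13 and still called, and Myog was 0.51 and not called.

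Tsc22d3, or GILZ, a direct glucocorticoid receptor target, had 61.6 and 60.8 CPM in mCDC and 130 and 91.6 CPM in vehicle muscles, which gave -0.85 (SE 0.18, edgeR adjusted p = 0.510). Ppargc1a, which encodes PGC-1α and restrains FoxO-driven atrophy, had 35.7 and 29.6 CPM in mCDC and 60.3 and 45.6 CPM in vehicle muscles, at -0.70 (SE 0.18, edgeR adjusted p = 0.612). The libraries of both separated by group. Without vehicle replicate 1 they stood at -0.58 and -0.48, both below 1.5-fold, and Ppargc1a was also short of it without mCDC replicate 2, at -0.57. Fkbp5, another glucocorticoid receptor target, had 55.3 and 26.9 CPM in mCDC and 30.1 and 26.5 CPM in vehicle muscles. Its log2 fold change was above 0, at 0.54 (SE 0.30, edgeR adjusted p = 0.740). Nr3c1, which encodes the receptor, had -0.16 (SE 0.17, edgeR adjusted p = 0.838). The groups of both Fkbp5 and Nr3c1 overlapped, and neither gene was called.

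**Figure D4:**
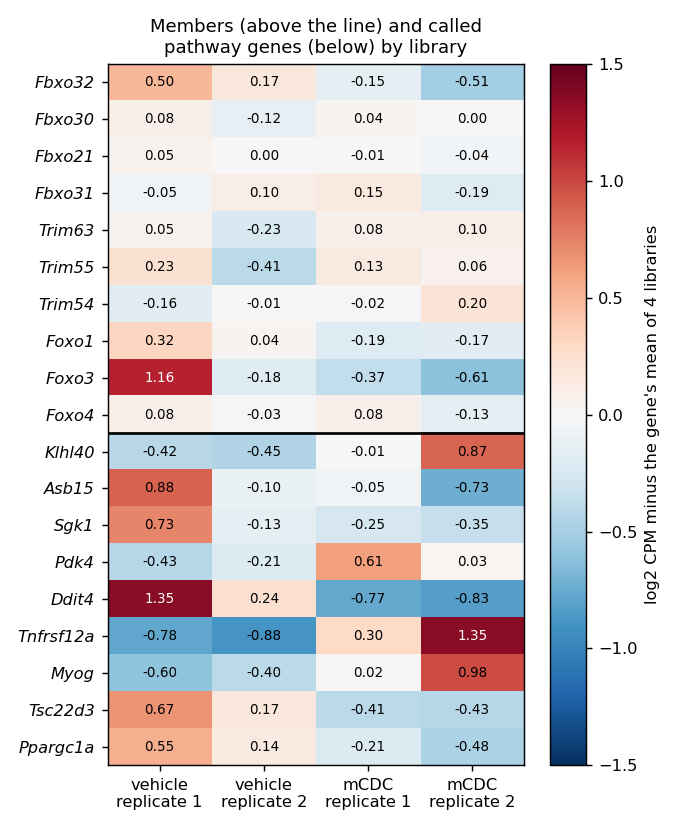
Log2 CPM of the 10 genes and of the called pathway genes in each library, centred on each gene's mean over the 4 libraries. Vehicle replicate 1 has the highest value for Fbxo32 (0.50), Foxo1 (0.32) and Foxo3 (1.16), and also for Ddit4, Sgk1, Tsc22d3 and Ppargc1a.

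Vehicle replicate 1 was the highest library for Fbxo32, Foxo1 and Foxo3, and also for Ddit4, Sgk1, Tsc22d3, Ppargc1a and Asb15. Centred on each gene's mean over the 4 libraries, it stood at log2 values of 0.50 for Fbxo32, 0.32 for Foxo1 and 1.16 for Foxo3, against 0.17, 0.04 and -0.18 in vehicle replicate 2. The summed markers of other cell types were not highest in that library, although the single markers Cd163, of macrophages, and Lep, of adipocytes, were, at 4.50 and 2.56 CPM. Summed over 5 fibroblast markers, the libraries had 304 and 266 CPM in mCDC and 290 and 492 CPM in vehicle muscles. In mCDC muscles 2 of the 5 were called lower, beside 2.74% of all genes. Summed over 4 endothelial markers, the libraries had 100 and 80.4 CPM in mCDC and 85.3 and 178 CPM in vehicle muscles. None of the 4 was called by edgeR's quasi-likelihood test or had an unadjusted p under 0.05 in it, and DESeq2 called 1. Macrophage markers summed to between 14.0 and 22.9 CPM, highest in mCDC replicate 2. Of the 5, Cd68 was called higher, with overlapping groups, and Csf1r lower, beside 1.26% and 2.74% of all genes. Satellite cell markers summed to between 3.75 and 5.30 CPM, highest in mCDC replicate 1, and Pax7 was called higher, at 2.99 and 2.88 CPM in mCDC against at most 1.87 CPM in vehicle muscles. DESeq2 called no macrophage or satellite cell marker. Adipocyte and Schwann cell sums, at 202 and 46.1 CPM, were likewise highest in vehicle replicate 2. The part of these cells in the values of the 10 genes was not tested. Summed muscle-fibre markers ranged from 122499 to 133803 CPM with none called. In bulk muscle, fewer cells of a type and less RNA per cell cannot be told apart.

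The genes whose pattern over the 4 libraries was most like that of Fbxo32 were Cc2d2a, Ppargc1a and Cpeb3, with root mean square differences of 0.039, 0.043 and 0.043 in centred log2 CPM among 7684 candidate genes. Cpeb3, which regulates translation, had 44.4 and 35.8 CPM in mCDC and 71.9 and 53.4 CPM in vehicle muscles. Nearest to Trim63 were Hprt, Rrn3 and Hsph1, at 0.004, 0.008 and 0.008, none of them called. Nearest to Foxo1 were Rasa1, Fnbp1 and Myh13, at 0.012, 0.016 and 0.016. These are descriptions of the pattern over 4 libraries.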

How the data were processed

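The authors mapped single-end reads with Bowtie2 2.1.0 and estimated gene levels with RSEM 1.2.15, as the submitters' processing notes name them beside build mm10, and deposited expected counts per gene without normalization. Between 15.3 and 16.2% of values per library were not whole. The study's methods and the labels name different library kits. The expected counts were rounded, low genes were dropped by filterByExpr and TMM scaling was applied in edgeR 4.0.16 (R 4.3.3), whose quasi-likelihood F-test (legacy = FALSE) was fitted over all genes, with Benjamini-Hochberg adjustment over the 13652 tested and a prior count of 2 for log2 CPM. The SE of a log2 fold change is its size over the square root of F. Precision is limited by 2 libraries per group. Positions and transcript lengths are those of GENCODE and RefSeq for GRCm38.p6, to which 22750 symbols matched by name and 905 by an older name. The 10 genes and all lists were chosen with earlier results of these data known. Named were the 10 genes and, of each list, the called genes or, where fewer than 2 were called in a direction, the 2 with the smallest p in it, plus the 3 genes nearest in pattern with a mean of at least 10 CPM. Foxo6, Klhl38, Fkbp5 and Nr3c1 were added with their values known. The procedure was tested on simulated data. Alternatives were DESeq2 1.42.0, other edgeR tests, scalings and filters, thinning of counts, a replicate block, a fit without the trend on length and GC content, and each library left out in turn.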

Additional observations from a re-analysis of the deposited data

How the results depend on the processing

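With 2 muscles per group, calls turned on single libraries. The number of the 10 genes called ranged from 0 (without vehicle replicate 1) to 2 when single libraries were left out, and was 1 without mCDC replicate 2 and 1, Foxo3, with the length and GC trend removed. Over all genes it ranged from 349 (without mCDC replicate 2) to 1107 (without vehicle replicate 1), and the median of the 10 genes from -0.11 to 0.05. With the trend removed, the share of all calls that were higher went from 31.5% (172 of 546) to 42.3% (208 higher, 284 lower). It was 42.1% without mCDC replicate 1 and 24.7% (273 higher, 834 lower) without vehicle replicate 1.

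Direction turned with the trend removed for Fbxo21 (0.012) and Fbxo31 (0.023), and when single libraries were left out for Fbxo31 (-0.21 to 0.13), Foxo4 (-0.16 to 0.055), Trim55 (-0.14 to 0.51) and Fbxo30 (-0.064 to 0.14), none of them called. Fbxo32, Trim63, Trim54, Foxo1 and Foxo3 kept their direction in all 13 alternatives. For all of these but Trim54 the groups did not overlap, so leaving out a library could hardly turn the direction. Most other alternatives refitted the same libraries, so the count of 13 adds little. Fbxo32 was called in 10 of them and Foxo3 in 12. Asb15 was also not called by DESeq2 or without a filter on low counts, and Ppargc1a not with the trend removed (-0.48). The cause of these shifts was not tested.

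With a replicate block, 481 genes were called (172 higher, 309 lower), 2 of the 10 genes among them, Fbxo32 and Foxo3. Same-numbered libraries did not deviate together (r = -0.039 over 13652 genes, which are not independent replicates), so the numbers were not taken to pair the muscles. Foxo3, at 73 to 302 counts, was the shallowest of the 10 genes.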
